A study of Mus musculus with 6 samples.

Results

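The genes of homologous recombination and of the Fanconi anemia pathway were followed in RNA of cultures that were or were not tachypaced, that is, stimulated electrically at a high rate as a culture model of a fibrillating atrium. The list holds 43 genes, chosen by name with earlier results of these data known. All 43 had a row among the 23060 gene names of the deposited table. The 6 libraries were 3 tachypaced and 3 control libraries of wild-type cells that carry the label HL-1, the name of a cell line derived from mouse atrial cardiomyocytes. Both groups had the same Claycomb medium with serum, norepinephrine and glutamine, and the titles name the group of each library. The labels give neither the rate nor the duration of pacing. They do not say either that the replicates are independent cultures, and each p-value therefore covers the scatter of these 6 libraries, some of which could be technical.

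Homologous recombination repairs broken chromosomes by copying the intact sister, and is used mainly in dividing cells after replication has begun. The MRE11, RAD50 and NBN proteins bind and trim the ends, the kinases ATM and ATR signal the damage, and BRCA1, PALB2 and BRCA2 act in the strand exchange that follows, helped by a family of paralogs and by the motor protein RAD54. The Fanconi pathway frees crosslinked strands: a core complex with the enzyme UBE2T attaches ubiquitin to the FANCD2 and FANCI clamp, which directs nucleases to the crosslink.

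In tachypaced libraries 8 of the 39 tested members were lower and 0 were higher than in control libraries. The 8 were Rad54l, Brca1, Chek2, Fancd2, Blm, Topbp1, Rad51b and Mre11a, and they span 6 role groups of the list: end processing, damage signalling, the BRCA genes, strand exchange, the Fanconi clamp and junction processing. Their means in tachypaced libraries were 53.3% (Rad54l) to 79.8% (Mre11a) of the control means. Among all 10361 tested genes 3.22% were lower and 2.3% higher by the same rule, against 20.5% of the tested members lower. Since the list was chosen with earlier results known, this contrast is a description. The test was limma with a trend on log2(FPKM + 1), where FPKM counts fragments scaled to transcript length and library size. Genes entered it at a mean FPKM of 1 or more, with a Benjamini-Hochberg adjusted p threshold of 0.05 over all tested genes. The count depended on which libraries were used: it was 0 in each fit without 1 of the other 5 libraries, 20 lower and 1 higher without control replicate 1, and 0 under quantile normalization (smallest adjusted p of a member 0.0514), without the filter on low values (0.126) and without the trend (0.0608). Over all tested genes the fit without control replicate 1 had 1947 lower and 1162 higher. At an unadjusted p threshold of 0.05 with all libraries, limma put 23 members lower and 1, Rad52, higher. Of all 10361 tested genes 3124 passed that unadjusted threshold, counting both directions. These are bulk libraries, so fewer cells that express a gene and less RNA per cell cannot be told apart.

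Several facts of the whole table bear on the members. Read depth is unknown, since no step worth 1 read could be recovered from the low FPKM values. Of the cardiomyocyte markers 11 of 12 were below 1 FPKM: Myh6, Actc1, Myl7, Nppb, Nkx2-5 and Gata4, 6 of the 12, had a value of 0 throughout. The exception was Tnni3, a troponin gene, at 3.59 ± 0.0657 FPKM in tachypaced and 3.21 ± 0.403 FPKM in control libraries, which did not pass the test (adjusted p = 0.351) and made up most of the sum. The 12 summed to between 3.73 and 4.02 FPKM in tachypaced and between 3.22 and 4.02 FPKM in control libraries. Of 13 macrophage markers 2 (Mrc1 and C1qa) were at 0 in every library, and the 13 summed to 1653 to 1837 FPKM in tachypaced and 1332 to 1496 FPKM in control libraries, with 3 of the 10 tested ones higher. The libraries are therefore named by their label and not by a cell type, and the part of this in the results was not tested. Summed fibroblast markers reached at most 0.144 FPKM in any library, T cell markers 0.0634 FPKM, B cell markers 0.706 FPKM and endothelial markers 1.93 FPKM. Control replicate 1 lay nearer to the tachypaced libraries than the other controls did, averaged over the members, over S phase genes and over G2 and M phase genes. Over all genes the ratio of lower to higher calls depended on scaling, with 334 lower and 238 higher as deposited, 183 and 221 after median of ratios scaling, 4 and 13 after quantile normalization and 922 and 250 after rescaling to a common total, while 0 members were higher under any of these.

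Promoter sequence is shown for the called members because they were lower together and come from different branches of the pathway. Of the 43 members 35 had an entry in the RefSeq promoter table (GRCm38.p6), which gives 250 bases before to 50 after a gene's start, and of the 8 called members all but Fancd2 had 1. The lines below give the 200 bases before the RefSeq start, 5′ to 3′ on the gene's strand, and the first entry is shown for Rad51b and Rad54l, which have several. Capitals mark matches to an E2F site (TTTCCCGC, TTTGGCGC, TTTGCCGC or TTTCGCGC), to a CCAAT box (CCAAT) and to a cell cycle homology region (TTTGAA or else TTCGAA), each searched on both strands.
Topbp1 (chr9:103305127-103305326, plus strand): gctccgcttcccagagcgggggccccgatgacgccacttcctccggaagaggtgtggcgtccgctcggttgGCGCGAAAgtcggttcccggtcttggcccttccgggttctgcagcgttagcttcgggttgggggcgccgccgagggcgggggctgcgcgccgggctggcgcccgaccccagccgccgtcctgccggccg
Chek2 (chr5:110839783-110839982, plus strand): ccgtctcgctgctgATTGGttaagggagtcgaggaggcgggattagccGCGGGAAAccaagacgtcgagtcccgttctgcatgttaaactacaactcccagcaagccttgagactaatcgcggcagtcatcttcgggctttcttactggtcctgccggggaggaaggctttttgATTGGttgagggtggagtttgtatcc
Brca1 (chr11:101551956-101552155, minus strand): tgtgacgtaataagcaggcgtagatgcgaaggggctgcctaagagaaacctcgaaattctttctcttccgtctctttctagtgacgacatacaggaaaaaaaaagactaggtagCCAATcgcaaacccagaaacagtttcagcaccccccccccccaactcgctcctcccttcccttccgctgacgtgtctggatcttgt
Rad54l (chr4:116123691-116123890, minus strand): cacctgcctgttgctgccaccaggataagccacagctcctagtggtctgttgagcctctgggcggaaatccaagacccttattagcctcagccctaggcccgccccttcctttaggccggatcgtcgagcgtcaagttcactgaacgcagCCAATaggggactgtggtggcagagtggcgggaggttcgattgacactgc
Blm (chr7:80534999-80535198, minus strand): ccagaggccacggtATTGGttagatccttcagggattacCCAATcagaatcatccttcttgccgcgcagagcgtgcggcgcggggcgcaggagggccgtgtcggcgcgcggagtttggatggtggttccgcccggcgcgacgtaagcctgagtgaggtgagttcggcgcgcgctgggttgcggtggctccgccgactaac
Mre11a (chr9:14784454-14784653, plus strand): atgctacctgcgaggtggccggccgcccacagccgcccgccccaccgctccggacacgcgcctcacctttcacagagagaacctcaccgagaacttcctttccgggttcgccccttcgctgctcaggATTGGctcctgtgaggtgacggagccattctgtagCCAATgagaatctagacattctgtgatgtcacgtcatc
Rad51b (chr12:79297082-79297281, plus strand): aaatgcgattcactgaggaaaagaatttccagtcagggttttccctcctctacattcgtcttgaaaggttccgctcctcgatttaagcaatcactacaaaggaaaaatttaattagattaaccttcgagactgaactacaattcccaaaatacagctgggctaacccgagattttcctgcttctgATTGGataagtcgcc

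Topbp1 and Chek2 each hold an E2F site in this window, at -129 to -122 and -152 to -145 relative to the RefSeq start. That start lies 112 bases downstream of the GENCODE gene start for Topbp1, 121 for Blm and 4 for Chek2, and at the same base for the other 4. Most of the Topbp1 and Blm windows therefore lies inside the gene as GENCODE positions it. Of the 7 called members with an entry 6, all but Topbp1, hold a CCAAT box in their table entry. The cell cycle homology region of Rad51b lies in its other entry, so no line above shows one. Over the members with an entry, 7 of 35 (20%) hold an E2F site, namely Topbp1, Chek2, Clspn, Bard1, Brca2, Rad51c and Fancg, against 5.07% of the 8024 tested genes with an entry and 2.6% of all 27025 genes of the promoter table. A CCAAT box is present in 21 of 35 members (60%), against 43.7% of tested genes. A cell cycle homology region is present in 5 of 35 (14.3%), against 16.6% of tested genes. Among the uncalled members with an E2F site, the RefSeq start of the first entry lies downstream of the GENCODE start by 448 bases for Rad51c and 205 for Fancg. The offset is 174 for Bard1, 45 for Clspn and -9 for Brca2. The first Rad51c entry therefore lies inside the gene as GENCODE positions it. Of the members with E2F letters, Topbp1, Chek2, Clspn, Bard1, Brca2 and Fancg had all tachypaced values below all control values. The same held for 22.4% of all tested genes. Rad51c had all tachypaced values above all control values. Rad54l and Brca1 were lower and hold no E2F letters in these windows. Whether these letters bear on the differences was not tested. No E2F match of a member overlaps a CCAAT match. A match describes the letters and is not a binding site, and a window without one says nothing about the factor.

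The members were mostly of low to middling abundance, and FPKM is scaled to length, so their levels are set side by side as a description. The order is limited by an unknown quantifier and annotation. Exon bases shared with other genes, up to 35.9% in Rad54b, limit it too. Means over the 6 libraries spanned 0.223 FPKM for Fancf, a core complex adaptor, to 34.6 FPKM for Rad52, an annealing protein, with a median of 3.75 FPKM. After Rad52 came Topbp1 at 20.2, Ube2t at 16.9, Mre11a at 12.8, Blm at 12.6 and Atr at 11.5 FPKM. The ranges of Mre11a and Blm overlapped in both groups, so their order was within the spread. Topbp1 lay above Ube2t in each of the 6 libraries. Atr lay above Blm in each tachypaced library and below it in each control library. At the low end, 4 members did not reach the mean of 1 FPKM required for testing: Exo1 (0.979), Eme1 (0.883), Fancb (0.810) and Fancf (0.223 FPKM), and no member was listed at 0 in any library. Just above that line stood Fancm (1.23), Polq (1.24) and Xrcc2 (1.30 FPKM). Only Polq among the tested members had a group mean under 1 FPKM, 0.992 in tachypaced libraries. As a description, Spearman's rho between level and log2 fold change was -0.03 across the 39 tested members, which share the 6 libraries.

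**Figure D1:**
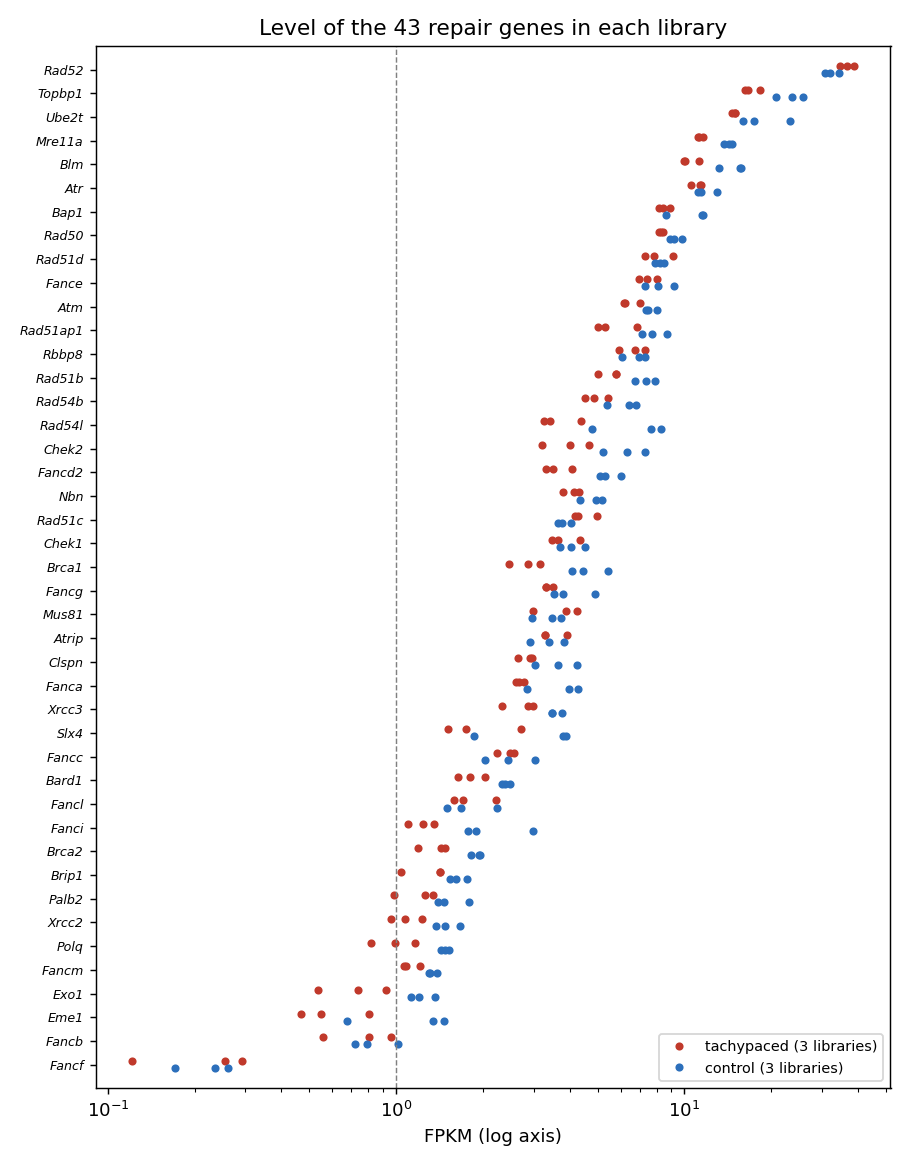
FPKM (log axis) of the 43 members in the 3 tachypaced libraries (red) and the 3 control libraries (blue), ordered by the mean over the 6 libraries, with a dashed line at 1 FPKM. Rad52 is highest at a mean of 34.6 FPKM, Fancf lowest at 0.223 FPKM, and red points lie left of blue ones in most rows.

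Of the 5 end processing genes 4 were tested and 1 was lower, against 3.22% of all tested genes. In 4 of the 5 all tachypaced values lay below the control values, as in 22.4% of all tested genes. Mre11a, the nuclease (chromosome 9, 14784654 to 14837123, GRCm38), had 11.2, 11.2 and 11.6 FPKM in tachypaced libraries and 14.2, 13.7 and 14.6 FPKM in control libraries. All tachypaced values lay below all control values, and limma gave -0.30 as log2 fold change (SE 0.06, adjusted p = 0.0435). Rad50, the coiled-coil ATPase that holds the ends, had 8.28, 8.17 and 8.40 FPKM in tachypaced and 8.94, 9.21 and 9.82 FPKM in control libraries, without overlap but short of the threshold (log2 fold change -0.15, adjusted p = 0.148). Nbn, the partner that recruits ATM, averaged 4.08 ± 0.260 in tachypaced and 4.82 ± 0.427 FPKM in control libraries (SD, n = 3 each; adjusted p = 0.152). Rbbp8, which encodes CtIP, the starter of resection, stood at 6.65 ± 0.682 FPKM in tachypaced and 6.78 ± 0.650 FPKM in control libraries, with a 95% interval of the log2 difference of -0.23 to 0.18. The exonuclease gene Exo1, below the level tested, had 0.535, 0.735 and 0.919 FPKM in tachypaced and 1.20, 1.13 and 1.36 FPKM in control libraries, so its groups were apart. The ratio of Mre11a to Rad50 was 1.37 ± 0.0111 in tachypaced and 1.53 ± 0.0601 in control libraries, which do not overlap. An exact two-sided permutation test gave p = 0.1, the smallest possible with 3 libraries a group, or 0.2 adjusted over 4 such ratios.

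Among the 7 damage signalling genes 2 were lower, Topbp1 and Chek2, while Atr, Atrip and Chek1 overlapped between groups. Of all tested genes 3.22% were lower, and 22.4% had all tachypaced values below all control values. Topbp1, the activator of ATR (chromosome 9, 103305215 to 103350428), had 16.6, 16.3 and 18.3 FPKM in tachypaced libraries and 20.7, 23.7 and 25.7 FPKM in control libraries. Every tachypaced value lay below every control value, and the log2 fold change came to -0.43 (SE 0.08, adjusted p = 0.0435). Chek2, the kinase downstream of ATM (chromosome 5, 110839979 to 110874145), had 4.65, 3.20 and 4.003 FPKM in tachypaced and 5.23, 6.30 and 7.32 FPKM in control libraries, which came to -0.56 on the log2 scale (SE 0.13, adjusted p = 0.0479). Its tachypaced replicate 1 and control replicate 1 came closest to each other.

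Atm itself had 6.19, 6.20 and 7.03 FPKM in tachypaced and 7.47, 7.33 and 8.03 FPKM in control libraries, again without overlap, and did not pass (log2 fold change -0.21, adjusted p = 0.107). Atr, the kinase of stalled forks, had 11.4, 10.6 and 11.4 FPKM in tachypaced and 11.2, 11.4 and 13.0 FPKM in control libraries. Those groups overlapped, and the 95% interval of the log2 difference was -0.25 to 0.08. Its substrate kinase gene Chek1 had 3.64, 3.47 and 4.36 FPKM in tachypaced and 4.53, 3.72 and 4.04 FPKM in control libraries, with an interval of -0.30 to 0.14. Atrip, the ATR partner, averaged 3.495 ± 0.371 FPKM in tachypaced and 3.37 ± 0.452 FPKM in control libraries, and 16.04% of its exon bases are shared with Trex1 on the same strand. Clspn, the adaptor between ATR and CHK1, averaged 2.84 ± 0.171 FPKM in tachypaced and 3.64 ± 0.604 FPKM in control libraries (adjusted p = 0.127).

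All 6 BRCA group genes had a negative log2 fold change, from -0.56 to -0.21, and 1 of them passed the test. Of all tested genes 58.9% had a negative log2 fold change and 3.22% passed the test as lower. Brca1, the ubiquitin ligase and tumor suppressor gene (chromosome 11, 101488764 to 101551955), had 2.47, 2.86 and 3.15 FPKM in tachypaced libraries and 4.09, 4.46 and 5.44 FPKM in control libraries. The highest tachypaced value lay below the lowest control value, and the difference was -0.56 on the log2 scale (SE 0.11, adjusted p = 0.0435). Brca2, a tumor suppressor gene of the strand exchange step, had 1.43, 1.19 and 1.47 FPKM in tachypaced and 1.82, 1.95 and 1.94 FPKM in control libraries, groups that were apart without passing (log2 fold change -0.30, adjusted p = 0.0677).

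Bard1, the obligate partner of BRCA1, averaged 1.82 ± 0.195 FPKM in tachypaced and 2.40 ± 0.0804 FPKM in control libraries (adjusted p = 0.0805). Palb2, the bridge between BRCA1 and BRCA2, averaged 1.19 ± 0.187 FPKM in tachypaced and 1.55 ± 0.206 FPKM in control libraries (adjusted p = 0.187). Brip1, a helicase bound by BRCA1, averaged 1.29 ± 0.219 FPKM in tachypaced and 1.64 ± 0.111 FPKM in control libraries (adjusted p = 0.193). All 3 were apart between groups without passing the test, and 22.4% of all tested genes were apart and lower. Bap1, a deubiquitinase first named for binding BRCA1, averaged 8.50 ± 0.361 FPKM in tachypaced and 10.6 ± 1.69 FPKM in control libraries, with control replicate 1 at 8.61 FPKM inside the tachypaced range. The ratio of Brca1 to Bard1 was 1.56 ± 0.186 in tachypaced and 1.94 ± 0.240 in control libraries and overlapped between groups (exact two-sided permutation p = 0.2, adjusted 0.2).

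**Figure D2:**
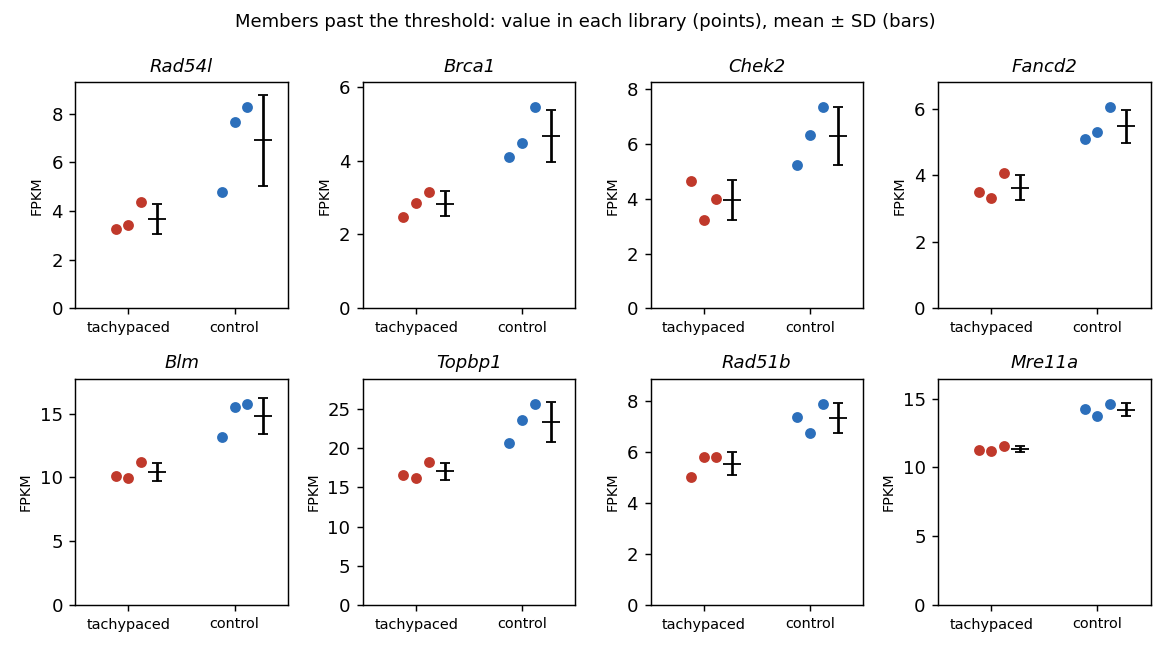
FPKM of the 8 members past the threshold in each library, tachypaced (red) left of control (blue), with the mean and SD of 3 libraries beside the points. In all 8 panels the tachypaced points lie below the control points, and for Rad54l control replicate 1, at 4.79 FPKM, lies nearest to them.

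Of 9 tested strand exchange paralogs and partners 2 were lower, and 7 had a negative and 2 a positive log2 fold change. Of all tested genes 58.9% had a negative one and 3.22% passed the test as lower. The 2 positive genes did not pass the test, and differences within the group were not tested. Rad54l, a motor protein of strand exchange (chromosome 4, 116094264 to 116123690), had 3.27, 3.41 and 4.38 FPKM in tachypaced and 4.79, 7.68 and 8.26 FPKM in control libraries. At -0.73 its log2 fold change was the largest in size among the tested members (SE 0.17, adjusted p = 0.0466). Of its exon bases 15.4% are shared with Lrrc41 on the opposite strand, a gene at 36.8 FPKM in tachypaced and 39.2 FPKM in control libraries, and the strand setting of the counting is not given in the sources used here. Rad51b (chromosome 12, 79297282 to 79814690), a paralog that aids strand exchange, had 5.03, 5.81 and 5.78 FPKM in tachypaced and 7.35, 6.74 and 7.88 FPKM in control libraries, apart by -0.35 on the log2 scale (SE 0.08, adjusted p = 0.0478).

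Rad51c, which binds RAD51B in a shared complex, went the other way in level. It had 4.96, 4.26 and 4.18 FPKM in tachypaced and 4.04, 3.75 and 3.65 FPKM in control libraries, so the groups were apart with tachypaced values above, and it did not pass the test (log2 fold change 0.18, 95% interval -0.01 to 0.37, adjusted p = 0.178). The ratio of Rad51c to Rad51b was 0.986, 0.734 and 0.723 in tachypaced and 0.550, 0.556 and 0.463 in control libraries, without overlap (exact two-sided permutation p = 0.1, the smallest possible, adjusted 0.2). With Rad51c apart above and Rad51b apart below, their ratio could not overlap, so it adds no separate result. Rad51d, of the same complex, stood at 8.08 ± 0.915 FPKM in tachypaced and 8.22 ± 0.306 FPKM in control libraries, with a 95% interval of the log2 difference of -0.21 to 0.16. The other paralogs, Xrcc2 and Xrcc3, were apart between groups and did not pass. Xrcc2 averaged 1.09 ± 0.138 FPKM in tachypaced and 1.504 ± 0.144 FPKM in control libraries (adjusted p = 0.101). Xrcc3 averaged 2.73 ± 0.348 FPKM in tachypaced and 3.57 ± 0.168 FPKM in control libraries (adjusted p = 0.0746).

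Rad52, named here after its values were seen, was the most abundant member. It was also the only other member whose tachypaced values all lay above the controls, as held for 12.6% of all tested genes. It had 34.7, 38.9 and 36.7 FPKM in tachypaced and 34.4, 30.8 and 31.9 FPKM in control libraries, with control replicate 1 just below the lowest tachypaced library (log2 fold change 0.18, adjusted p = 0.109). Rad51ap1, which stimulates strand pairing, averaged 5.74 ± 0.992 FPKM in tachypaced and 7.86 ± 0.797 FPKM in control libraries (adjusted p = 0.0633). Rad54b, a relative of Rad54l, averaged 4.93 ± 0.451 FPKM in tachypaced and 6.19 ± 0.728 FPKM in control libraries, which overlapped (adjusted p = 0.0971), with 35.9% of its exon bases shared with other genes, nearly all of them with Fsbp on the same strand.

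**Figure D3:**
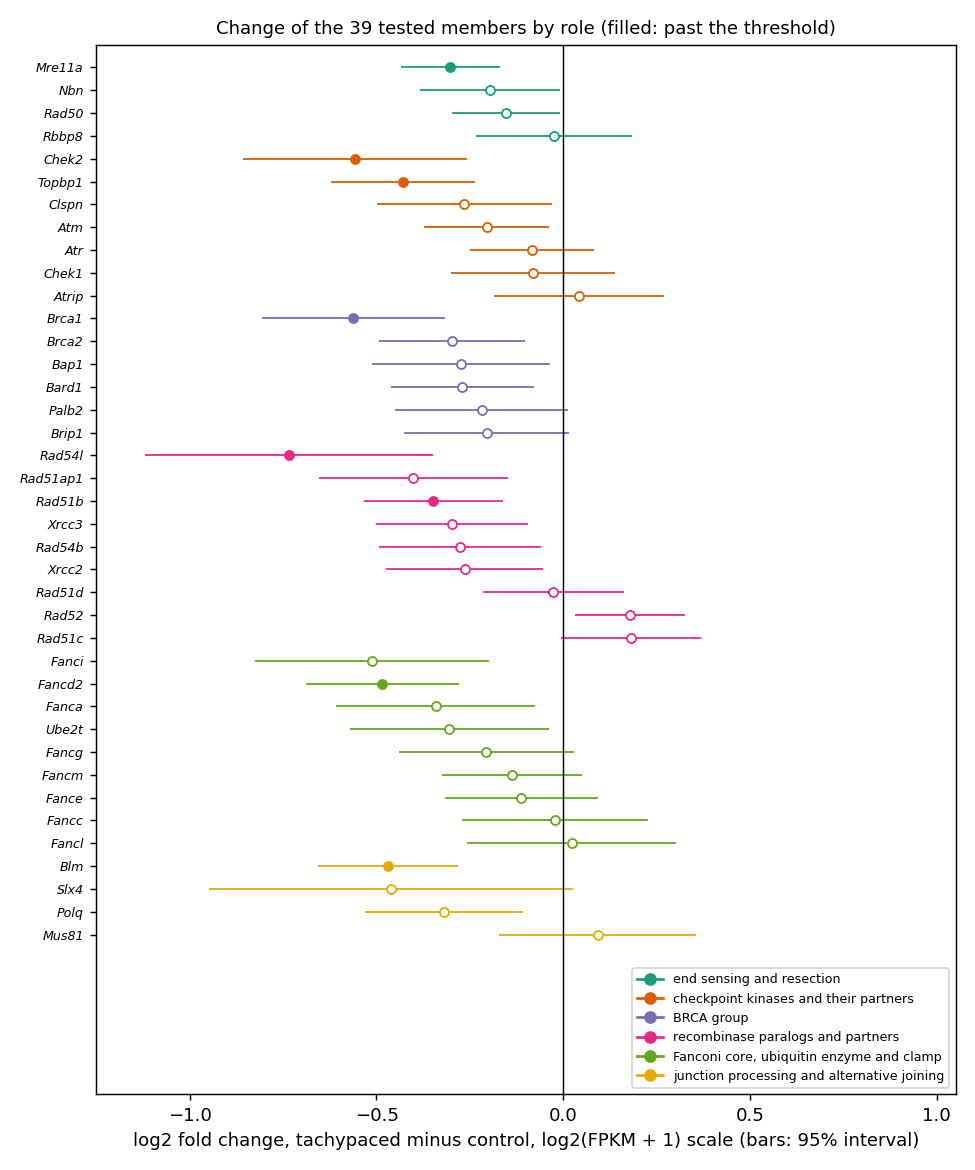
Log2 fold change, tachypaced minus control, with 95% intervals for the 39 tested members, grouped and coloured by role, with filled points for those past the threshold. Of the points 34 lie left of 0, and Rad52 and Rad51c lie farthest right at 0.18.

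In the Fanconi pathway both clamp genes and the enzyme gene Ube2t had tachypaced values below all control values, and 5 of 8 core complex genes overlapped between groups. Of all tested genes 22.4% were apart and lower and 3.22% passed the test as lower. The clamp and core genes were not tested against each other. Of the 11 genes 9 were tested and 1 was lower, Fancd2, the clamp subunit that carries the ubiquitin mark (chromosome 6, 113531682 to 113597017). It had 3.51, 3.32 and 4.07 FPKM in tachypaced and 5.11, 5.30 and 6.04 FPKM in control libraries, a difference of -0.49 on the log2 scale (SE 0.09, adjusted p = 0.0435). Fanci, its partner subunit, had 1.24, 1.10 and 1.35 FPKM in tachypaced and 1.77, 1.89 and 2.99 FPKM in control libraries, apart but not past the test (log2 fold change -0.51, adjusted p = 0.0601). Its control replicate 3 stood above the other controls, and 15.95% of its exon bases are shared with Polg on the opposite strand, a gene at 4.91 FPKM in tachypaced and 5.645 FPKM in control libraries. The ratio of Fancd2 to Fanci, 2.96 ± 0.110 in tachypaced and 2.57 ± 0.475 in control libraries, overlapped between groups (exact two-sided permutation p = 0.2, adjusted 0.2).

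Ube2t, the ubiquitin enzyme, averaged 14.9 ± 0.193 FPKM in tachypaced and 18.9 ± 3.90 FPKM in control libraries, the controls spreading between 15.9 and 23.3 FPKM (adjusted p = 0.124). In the core complex Fanca, a scaffold subunit, averaged 2.68 ± 0.0867 in tachypaced and 3.70 ± 0.756 FPKM in control libraries, apart between groups (adjusted p = 0.0962). Fancg, its stabilizing partner, averaged 3.37 ± 0.113 FPKM in tachypaced and 4.07 ± 0.714 FPKM in control libraries (adjusted p = 0.210). Fancm, the DNA translocase that anchors the complex, averaged 1.12 ± 0.0808 FPKM in tachypaced and 1.33 ± 0.0468 FPKM in control libraries (adjusted p = 0.287). These were apart and short of the threshold, while the subunit genes Fancc and Fance and the ligase subunit gene Fancl overlapped between groups. Fancc averaged 2.43 ± 0.161 FPKM in tachypaced and 2.501 ± 0.498 FPKM in control libraries. Fance averaged 7.49 ± 0.539 FPKM in tachypaced and 8.19 ± 0.955 FPKM in control libraries. Fancl averaged 1.84 ± 0.333 FPKM in tachypaced and 1.80 ± 0.382 FPKM in control libraries, whose 95% interval of the log2 difference ran from -0.26 to 0.30. Fancb and Fancf, below the level tested, also overlapped.

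Of the 5 genes of junction processing and alternative end joining 4 were tested and 1 was lower. Among all tested genes 3.22% were lower, and 22.4% had all tachypaced values below all control values. Blm, the helicase that dissolves joined chromosomes (chromosome 7, 80454733 to 80535119), had 10.1, 9.94 and 11.2 FPKM in tachypaced and 13.2, 15.5 and 15.8 FPKM in control libraries. The groups were apart, by -0.47 on the log2 scale (SE 0.08, adjusted p = 0.0435). Polq, the polymerase of microhomology joining, had 0.819, 0.993 and 1.16 FPKM in tachypaced and 1.48, 1.43 and 1.53 FPKM in control libraries, also apart (log2 fold change -0.32, adjusted p = 0.0693). Slx4, a nuclease scaffold, averaged 1.99 ± 0.642 FPKM in tachypaced and 3.17 ± 1.13 FPKM in control libraries, with control replicate 1 at 1.87 FPKM among the tachypaced values (adjusted p = 0.186). The nuclease gene Mus81 averaged 3.71 ± 0.655 FPKM in tachypaced and 3.40 ± 0.389 FPKM in control libraries. Its partner Eme1, not tested, averaged 0.607 ± 0.177 FPKM in tachypaced and 1.16 ± 0.422 FPKM in control libraries. Mus81 and Eme1 both overlapped between groups. Of the exon bases of Eme1 10.7% are shared with other genes, most of them with Lrrc59 on the opposite strand. Lrrc59 stood at 47.7 FPKM in tachypaced and 62.2 FPKM in control libraries.

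Over the whole list, 34 of 39 tested members (87.2%) had a negative log2 fold change, against 58.9% of all tested genes, and the median was -0.27, against -0.04 over all tested genes. In 25 of the 39 (64.1%) all tachypaced values lay below all control values, against 22.4% of all tested genes, and in 2 (5.13%), Rad51c and Rad52, all lay above, against 12.6% of all tested genes. Counting the 4 untested genes, 26 of the 43 were apart and lower. These contrasts, too, describe a list chosen with earlier results known. The list's median log2 fold change stayed between -0.29 and -0.23 under the 3 other scalings of the libraries. Summed over the 43 members, expression was 220.2, 221.0 and 240.3 FPKM in tachypaced and 251.8, 267.6 and 291.5 FPKM in control libraries. The groups did not overlap, and across them tachypaced replicate 3 and control replicate 1 came closest. Without control replicate 1, the 20 lower members included all 8 named above, together with Nbn, Clspn, Bap1, Brca2, Xrcc3, Rad51ap1, Rad54b, Fanca, Ube2t, Fanci, Slx4 and Polq, and the 1 higher member was Rad52. In that fit 1947 of all 10361 tested genes were lower and 1162 higher.

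**Figure D4:**
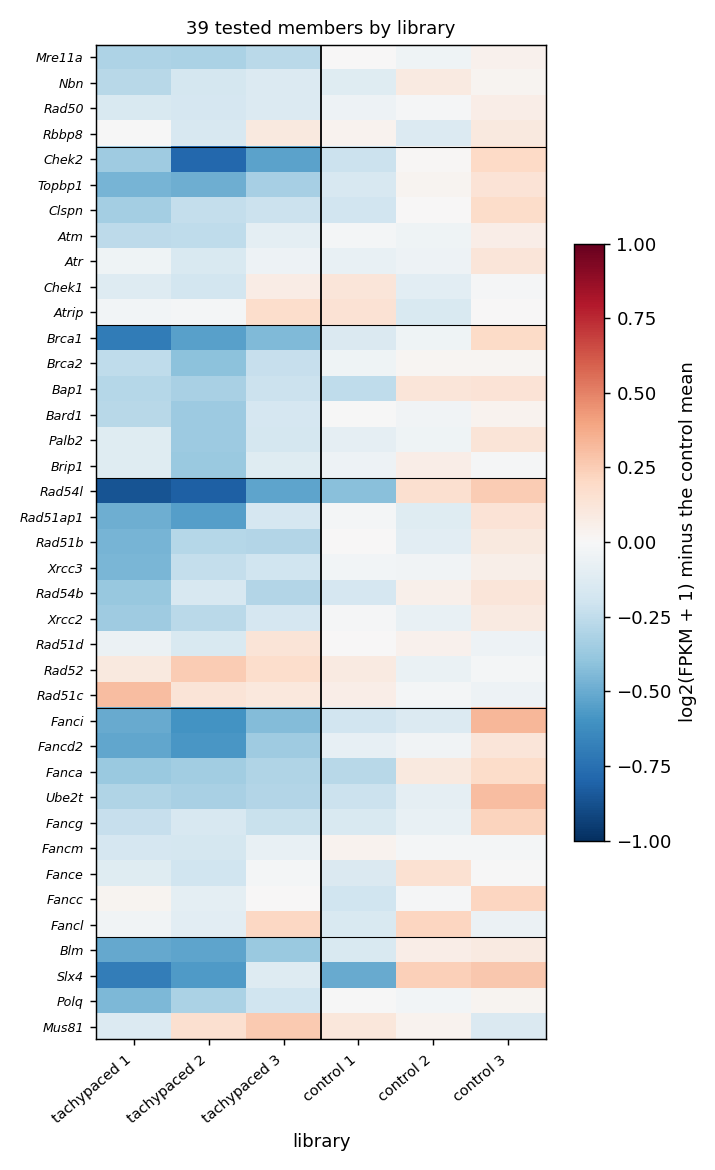
Heat map of log2(FPKM + 1) minus the control mean for the 39 tested members (rows, by role group) in the 3 tachypaced and 3 control libraries (columns). Blue fills most of the tachypaced columns, Rad52 and Rad51c are red there, and control replicate 1 is blue for Rad54l and Slx4.

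Other genes of the same pathways are given by count, to be read against 3.22% of all tested genes lower and 2.3% higher. A count of 1 or 2 in lists of this size lies near those shares. Of 33 tested partners in homologous recombination 2 were lower and 0 higher, and the list's median was -0.17 on the log2 scale. The 2 were Rpa1, a subunit of the single-strand binding complex (13.5 ± 1.07 FPKM in tachypaced and 21.5 ± 4.44 FPKM in control libraries, adjusted p = 0.0435), and Mcm8, a helicase (4.51 ± 0.316 FPKM in tachypaced and 5.97 ± 0.259 FPKM in control libraries, adjusted p = 0.0448). Of 16 tested Fanconi partners 1 was lower, the hemimethyl DNA reader Uhrf1 (log2 fold change -0.53, adjusted p = 0.0479), and 0 were higher, with a median of -0.08. Of 12 checkpoint partners 1 was lower, the fork protection gene Tipin (-0.35, adjusted p = 0.0435), and 0 were higher, with a median of -0.09. In end joining, the route that does not use a template, 1 of 16 was lower, Parp1, a sensor of strand breaks (-0.32, adjusted p = 0.0467). Another, Paxx, a Ku-binding factor, was higher (0.36, adjusted p = 0.0435), and the median was -0.03. These lists were not tested against the members. Without control replicate 1 the counts were 13 lower and 2 higher, 6 and 1, 1 and 0, and 6 and 1 for the homologous recombination, Fanconi, checkpoint and end joining lists. Those counts are to be read against 1947 lower and 1162 higher among all 10361 tested genes in that fit. Without any 1 of the other 5 libraries, under quantile normalization, without the filter and without the trend, none of these lists had a call, and neither had S phase or G2 and M phase genes. With a common total 6 homologous recombination partners, 4 Fanconi partners, 2 end joining and 12 S phase genes were lower, and after median of ratios scaling 0 Fanconi partners and 0 end joining genes were. Over all tested genes 922 were lower with a common total and 183 after median of ratios scaling.

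Genes of the dividing cell were lower in the same libraries. Of 24 S phase genes 3 were lower (Rrm1, Rrm2 and Lig1) and 0 higher, and of 24 genes of G2 and M phase 18 were lower and 0 higher. The medians of these lists were -0.32 and -0.44 on the log2 scale. Averaged on the log2(FPKM + 1) scale relative to the control mean, the members stood at -0.28, -0.29 and -0.15 in tachypaced libraries and at -0.09, 0.00 and 0.09 in control libraries. S phase genes stood at -0.35, -0.31 and -0.23 in tachypaced and -0.15, 0.01 and 0.14 in control libraries. G2 and M phase genes stood at -0.52, -0.52 and -0.37 in tachypaced and -0.22, 0.03 and 0.19 in control libraries. On all 3 lists control replicate 3 was the highest library, control replicate 1 the lowest control and tachypaced replicate 3 the highest tachypaced library. With control replicate 1 left out, 16 S phase and 23 G2 and M phase genes were lower, as were 1947 of all 10361 tested genes. The part of cell division in the members' difference was not tested.

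**Figure D5:**
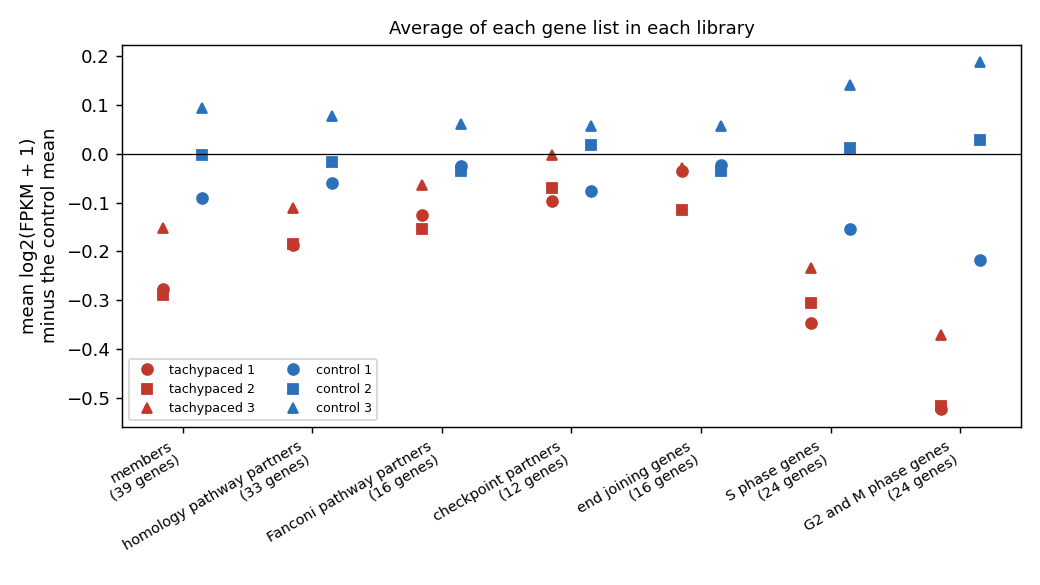
Mean log2(FPKM + 1) minus the control mean of each gene list in each library, tachypaced (red) left of control (blue), with the replicate given by the symbol. The members lie between -0.29 and -0.15 in tachypaced libraries, the G2 and M phase genes between -0.52 and -0.37, and the end joining and checkpoint lists overlap between groups.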

How the data were processed

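Total RNA of 6 samples labelled HL-1 was made into libraries with a SMARTER mRNA kit, per the labels. The authors deposited 1 table of FPKM values with a column per library. The build is GRCm38, also named mm10, per the submitters' processing notes. Aligner, quantifier, annotation and strandedness were not given in the sources used here. Each column name equals the description of 1 sample, and 0 library pairs held identical values. Depth was sought in values under 0.1 FPKM: at most 5.15% of the ratios between libraries fell in a log2 bin of 0.05, so no depth, interval of counting error or floor could be given.

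Values were taken as log2(FPKM + 1), which understates the change of low genes. limma 3.58.1 (R 4.3.3; eBayes with a trend, two-sided, no covariates) was run on the 10361 genes whose mean FPKM reached 1, with Benjamini-Hochberg adjustment and a threshold of 0.05. The steps were checked on simulated data. The 4 ratios of partner genes were added after the values were seen and had an exact permutation test, whose smallest p with 3 libraries a group is 0.1. Positions and exon overlaps came from GENCODE M21, promoters from RefSeq. Symbols were matched by name and for the partner lists also by RefSeq synonym.

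Members and lists were chosen with earlier results of these data known. By rule, members past the threshold and Brca1, Brca2, Rad51c, Fancd2, Chek1, Atm, Atr and Rad50 were given library by library, and partners where past the threshold. Alternatives were a pseudocount of 0.1, no filter, a minimum mean of 5 FPKM, 3 other scalings (median of ratios, quantile, common total), no trend, robust eBayes, the replicate number as a block, a threshold of 0.1 and leaving out each library. Tables and figures used Python 3.11.15 with numpy 2.4.6, pandas 2.3.3, scipy 1.17.1 and matplotlib 3.10.9.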

Additional observations from a re-analysis of the deposited data

How the results depend on the processing

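The count of 8 lower members was within 1.5 times of itself with a pseudocount of 0.1 (8), a minimum mean of 5 FPKM (6 of the 17 members left), a common total per library (12) and robust eBayes (8). Among all tested genes, 336 of 10361 were lower with that pseudocount and 475 of 7483 with that minimum mean. With a common total 922 of 10361 were lower, and with robust eBayes 420, against 334 in the main fit. The count of lower members is to be read against these. That count was 5 after median of ratios scaling, 16 at a threshold of 0.1, and 0 under quantile normalization, without a filter on low values and in eBayes without a trend. With 1 library left out it ran from 0 to 20 lower and from 0 to 1 higher. Over all genes the counts were 591 lower and 334 higher with the replicate block, 1250 and 724 at a threshold of 0.1, 1947 and 1162 without control replicate 1, 0 and 0 without a filter and 0 and 2 without a trend. The cause of these shifts was not tested. The median log2 fold change of the tested members kept its sign throughout, between -0.32 (pseudocount 0.1) and -0.21 (without control replicate 3). All 8 called members kept a negative log2 fold change under each alternative that could be run on them.

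With the replicate number as a block 10 members were lower, including the same 8, and 0 higher, and among the lists 9 S phase genes, 4 homologous recombination partners and 2 Fanconi partners were lower. The labels do not say whether same-numbered libraries were handled together. Deviations of same-numbered libraries from their group means correlated at 0.061, -0.034 and 0.157 over all tested genes. Not every library correlated best with its own number, and 0.157, for replicate 3, was the highest of all pairings. With 3 libraries a group such correlations cannot decide whether the libraries are paired.

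Members that did not pass the test changed sign as follows. Rbbp8 came to 0.0018 after median of ratios scaling, 0.0311 under quantile normalization, and ran from -0.0933 to 0.0446 with a library left out (0.025 without control replicate 3). Rad51d came to 0.0004 and 0.0402 under the same scalings and ran from -0.1047 to 0.0354. Fancc came to 0.0014 under quantile normalization, and ran from -0.1207 to 0.0831. Fancl came to -0.0024 with a common total and ran from -0.0713 to 0.1293, and Atrip ran from -0.0349 to 0.115. Where the sign changed, the adjusted p was at least 0.681. Precision is limited by 3 libraries a group and by unknown depth.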
